A study of Mus musculus with 115 samples.

Results

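The transcripts described here encode 9 secreted or granule proteins of the acute phase and of neutrophils: lipocalin 2 (Lcn2), the calprotectin subunits S100a8 and S100a9, the serum amyloid A proteins Saa1, Saa2 and Saa3, the orosomucoids Orm1 and Orm2, and the neutrophilic granule protein Ngp. They were taken by symbol from the 18120 symbols of an Illumina BeadChip, and each had 1 probe. The 9 were selected on their intensities in these arrays, Lcn2 and S100a8 for their levels under estradiol in liver, so every liver value that rests on estradiol arrays, alone or averaged with others, is given as a description without a test. All 9 passed the filter on dim probes in liver (8510 symbols passed). S100a9 and Ngp passed there mainly through ovary-line estradiol arrays, which hold 7 of the 11 liver arrays above background for S100a9 and 7 of 7 for Ngp. Saa2 was above background in 6 ovary-line estradiol arrays of liver, and otherwise in 2 ovary-line blank, 2 testis-line testosterone and 1 testis-line estradiol arrays. In adipose tissue 8 of the 9 passed (10871 symbols passed), and Saa2, above background in 1 of the 55 arrays, did not.

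The study separated gonad type, sex chromosomes and hormones as sources of sex differences in liver and inguinal adipose tissue. The mice were C57BL/6J animals of the model of 4 core genotypes, in which the Y chromosome lacks the testis-determining gene Sry (written Y-) and a Sry transgene may sit on an autosome. XX and XY- mice form ovaries and are called the ovary-line groups below, and XXSry and XY-Sry mice form testes and are called the testis-line groups. All mice, the blank groups included, lost their gonads at 75 days of age and received a capsule at once, which was blank (B), held testosterone (T, 5 mM) or held estradiol (E, 50 µg of 17beta-estradiol), and tissue was taken 3 weeks later. Each of the 12 combinations of genotype and capsule had 5 liver arrays. In adipose tissue the groups held 5 arrays except XX B with 3, and XX T, XY-Sry B and XXSry E with 4. The labels do not tie a liver array to an adipose array of the same mouse, and they do not say that arrays of a group are separate animals, so p-values measure the spread between these arrays.

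Raw array medians lay between 124 and 159 in liver and between 130 and 230 in adipose tissue, and 31.8% to 41.0% and 40.3% to 49.0% of the 25697 probes were above background. The hepatocyte list (8 genes, 10 probes) averaged 12.19 to 12.82 on the log2 scale in every liver array. In 2 liver arrays a marker went against the label. XY- E replicate 5 had Hsd3b5, a male-predominant liver gene, at 12.26, where the other estradiol arrays had 4.50 to 11.19 and the testosterone arrays 11.15 to 12.95. XY-Sry T replicate 5 had Xist at 5.97 and Eif2s3y at 4.53, where the other XY arrays had Xist up to 5.75 and Eif2s3y from 6.76. Replicate 1 of XX E in adipose tissue has 2 different capsules in its label fields and was kept as estradiol. Results that change without these arrays are given with and without them.

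In an acute-phase response, cytokines that signal through STAT3, C/EBP and NF-kB factors raise the output of plasma proteins from hepatocytes, among them serum amyloid A, orosomucoid and lipocalin 2. Neutrophils carry calprotectin in the cytosol and Ngp, cathelicidin and lactotransferrin in their secondary granules, and lipocalin 2 is made both by neutrophils and by hepatocytes and epithelia. A sample of whole tissue mixes these sources. Fewer cells of a type and less RNA per cell cannot be told apart in it.

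The promoters of 8 of the 9 genes, all but Orm1, were matched in the RefSeq tables (assembly GRCm38.p6). A C/EBP motif, TTGCNNAA on either strand, stood in the 300 bases around the start site (250 before, 50 after) of 7 of these 8, S100a8 being the one without it, and in 10.8% of 32851 promoters of that length. An NF-kB motif, GGG and TTTCC with 2 free bases between them, was in 0 of 8 windows and in 1.63% of all, and the STAT motif TTCNNNGAA was in 0 of 8 and in 8.3% of all. No match says only that these letters are not in the window. The 250 bases before the start are shown for the genes that moved together in liver, on the strand of the gene from 5′ to 3′, with the C/EBP match in capitals. It starts 216 bases before the start site in Lcn2 (chr2:32387740-32387989, minus strand), 182 in Saa1 (chr7:46742981-46743230, minus strand), 183 in Saa2 (chr7:46751583-46751832, plus strand), 120 in Orm2 (chr4:63362199-63362448, plus strand) and 236 in S100a9 (chr3:90695722-90695971, minus strand). S100a8 (chr3:90668821-90669070, plus strand) is set beside S100a9 as its partner subunit.
Lcn2: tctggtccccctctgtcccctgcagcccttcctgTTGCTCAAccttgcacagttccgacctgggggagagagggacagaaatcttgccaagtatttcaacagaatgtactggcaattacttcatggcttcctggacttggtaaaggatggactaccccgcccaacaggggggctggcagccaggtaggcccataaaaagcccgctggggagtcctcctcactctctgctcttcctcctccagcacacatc
Saa1: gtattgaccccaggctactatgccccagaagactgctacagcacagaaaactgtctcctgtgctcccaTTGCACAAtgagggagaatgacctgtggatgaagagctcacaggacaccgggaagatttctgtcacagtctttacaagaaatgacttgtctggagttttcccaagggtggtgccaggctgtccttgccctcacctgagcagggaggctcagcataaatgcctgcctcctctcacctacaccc
Saa2: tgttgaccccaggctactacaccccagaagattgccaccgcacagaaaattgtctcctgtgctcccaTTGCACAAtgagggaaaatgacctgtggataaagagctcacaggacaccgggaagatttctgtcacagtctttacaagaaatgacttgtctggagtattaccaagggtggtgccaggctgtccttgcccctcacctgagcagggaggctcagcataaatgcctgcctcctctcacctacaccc
Orm2: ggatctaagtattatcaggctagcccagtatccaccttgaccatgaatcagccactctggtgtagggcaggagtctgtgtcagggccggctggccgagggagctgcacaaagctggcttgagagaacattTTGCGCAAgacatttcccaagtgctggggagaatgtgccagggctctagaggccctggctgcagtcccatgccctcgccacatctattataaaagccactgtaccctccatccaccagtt
S100a9: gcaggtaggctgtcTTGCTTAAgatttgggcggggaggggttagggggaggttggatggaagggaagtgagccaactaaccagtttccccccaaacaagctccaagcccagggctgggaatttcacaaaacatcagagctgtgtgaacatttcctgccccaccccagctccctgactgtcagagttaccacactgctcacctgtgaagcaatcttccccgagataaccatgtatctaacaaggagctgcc
S100a8: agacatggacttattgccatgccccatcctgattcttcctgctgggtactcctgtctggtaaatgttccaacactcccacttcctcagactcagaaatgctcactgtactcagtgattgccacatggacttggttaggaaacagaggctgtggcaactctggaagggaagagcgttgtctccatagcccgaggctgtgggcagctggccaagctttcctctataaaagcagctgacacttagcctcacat
Saa1 and Saa2 are neighbouring genes, and their 250 bases aligned over 251 columns with 238 identical bases (94.8%). S100a8 and S100a9 are also neighbours, and Orm3 lies between Orm1 and Orm2. Probe sequences were not used here, and the Saa1 and Saa2 probes, or the Orm1 and Orm2 probes, may each hold signal of the other gene, which was not tested.

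All levels below are log2 of the background-corrected, quantile-normalised intensity. An offset of 16 shrinks the differences of dim probes. A probe counts as above background in an array if its deposited detection p-value is under 0.01, and a result is called if its p from limma, adjusted by Benjamini-Hochberg over the probes tested in that tissue, is under 0.05.

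In liver, XX E had the highest group mean of each of the 9 transcripts among the 12 groups, and XY- E the second highest mean of all but Orm1. Yet every pair of groups next to each other in these orders had overlapping arrays. Over all 4 genotypes, estradiol minus blank in liver was 2.50 ± 0.54 (SE) for Lcn2, 2.29 ± 0.31 for S100a8, 1.72 ± 0.47 for Saa3, 1.17 ± 0.26 for S100a9, 1.11 ± 0.37 for Saa2, 1.08 ± 0.40 for Saa1, 0.91 ± 0.17 for Ngp, 0.50 ± 0.27 for Orm2 and 0.09 ± 0.07 for Orm1. Of the 9 probes 5 passed the threshold, where 6.82% of all 11317 probes did. These genes were chosen with this comparison in view, so nothing is read from that count.

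**Figure D1:**
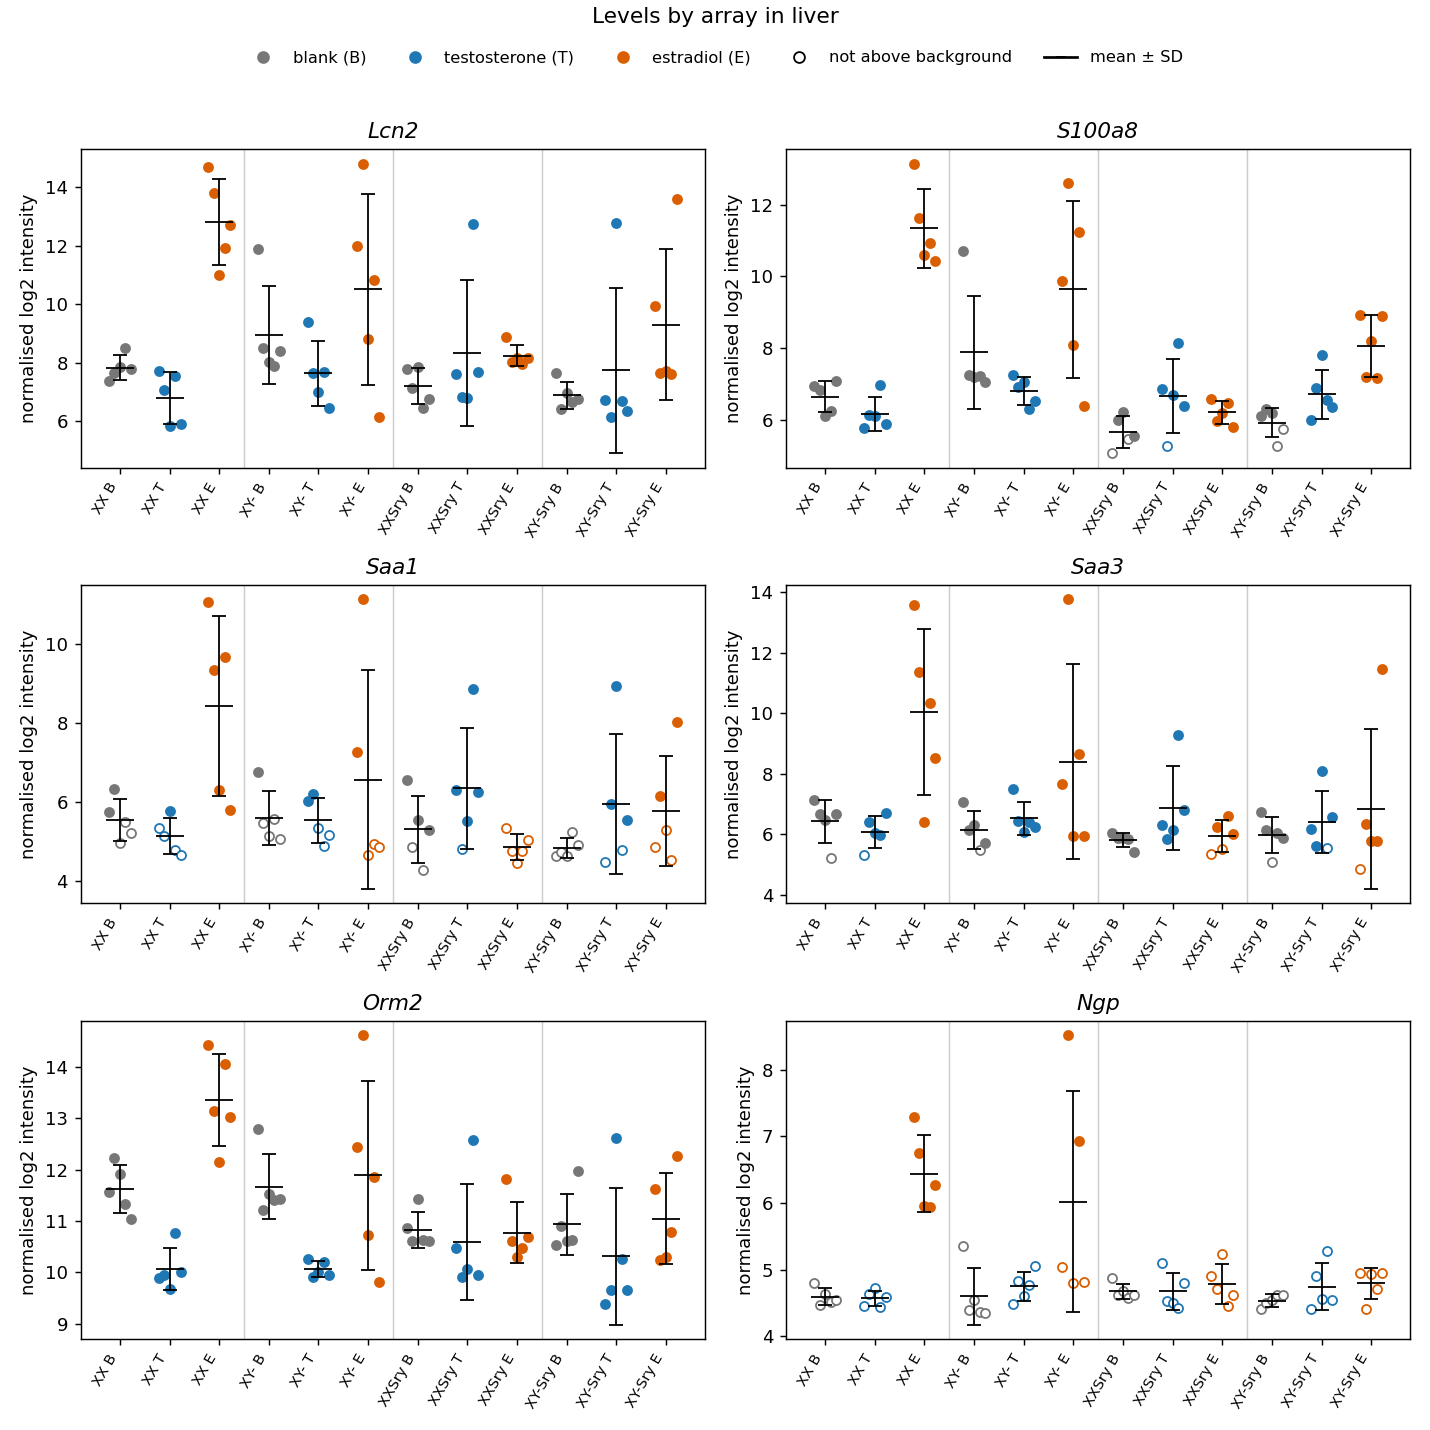
Normalised log2 intensity of Lcn2, S100a8, Saa1, Saa3, Orm2 and Ngp in each liver array (points, 5 per group, open where not above background) with the mean ± SD of the 12 groups; the horizontal axis gives genotype and capsule. The 5 XX E arrays lie between 10.99 and 14.67 for Lcn2, and single arrays of XY- B, XXSry T, XY-Sry T and XY-Sry E stand far above the rest of their groups.

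Lcn2, which binds iron-loaded siderophores of bacteria, was at 14.67, 13.78, 10.99, 11.91 and 12.70 in the 5 XX E arrays and at 7.37, 7.65, 7.85, 8.50 and 7.80 in XX B. The 2 sets do not overlap, and the means differed by 4.98 ± 1.07 (SE). In XY- E the arrays read 12.00, 14.80, 8.80, 10.81 and 6.14, and in XY- B 11.88, 8.49, 8.03, 7.87 and 8.41. These overlap: XY- B replicate 1 was higher than 3 of the 5 XY- E arrays, and XY- E replicate 5, the array whose Hsd3b5 went against its label, was the lowest of the 10. XXSry E spanned 7.95 to 8.88, above all 5 XXSry B arrays (6.46 to 7.86) by a small margin. XY-Sry E read 9.95, 7.65, 7.73, 7.60 and 13.59 against 6.41 to 7.64 in XY-Sry B. Of the 55 liver arrays outside XX E, 6 reached the lowest XX E value of Lcn2. They were XY- E replicates 1 and 2, XY- B replicate 1, XXSry T replicate 4, XY-Sry T replicate 3 and XY-Sry E replicate 5.

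S100a8, the smaller calprotectin subunit, read 13.15, 11.63, 10.60, 10.93 and 10.44 in XX E and 6.10 to 7.06 in XX B, a difference of 4.72 ± 0.62. XY- E read 9.88, 12.62, 8.08, 11.24 and 6.37, and XY- B 10.71, 7.24, 7.19, 7.20 and 7.06, so these 2 groups overlap. XXSry E stayed between 5.80 and 6.59. XY-Sry E lay between 7.16 and 8.93, above XY-Sry B at 5.27 to 6.29. Only 3 of the 55 arrays outside XX E reached its lowest S100a8 value: XY- B replicate 1 and XY- E replicates 2 and 4.

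S100a9, which pairs with S100a8, was above background in 5 of 5 XX E arrays (9.63, 8.39, 6.37, 7.70 and 7.26) and in 0 of 5 XX B arrays. Set against the dimmest detected signal, XX E was at least 5.09-fold higher than XX B. In XY- E replicates 2 and 4 read 9.59 and 8.11, and the other 3 arrays were not above background. Ngp, a protein of secondary granules, was above background in all 5 XX E arrays (7.29, 6.75, 5.96, 5.94 and 6.26), in XY- E replicates 2 and 4 (8.52 and 6.93) and in no other of the 60 liver arrays. XX E was at least 1.89-fold higher than XX B, and the pooled ovary-line E arrays at least 1.56-fold higher than the testis-line E arrays.

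The serum amyloid A transcripts, apolipoproteins that coat HDL in the acute phase, varied widely inside groups. Saa1 read 11.05, 9.35, 6.30, 9.67 and 5.81 in XX E and 4.97 to 6.35 in XX B, where 2 of 5 arrays were above background, and the 2 groups overlap. In XY- E replicates 1 and 2 read 7.27 and 11.12 and the other 3 were not above background. Saa2 was above background in 4 of 5 XX E arrays (10.21, 8.07, 8.42 and 5.85) and in 0 of 5 XX B arrays, so that XX E was at least 3.96-fold higher. Saa3 read 13.59, 11.36, 6.40, 10.35 and 8.50 in XX E against 5.22 to 7.12 in XX B, and 7.65, 13.76, 5.94, 8.66 and 5.93 in XY- E against 5.46 to 7.07 in XY- B. Replicate 3 of XX E, the lowest for Lcn2, lay inside the XX B range for all 3 genes.

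The orosomucoids, plasma proteins that bind basic drugs and steroids, differed from each other. Orm2 read 14.42, 13.14, 12.14, 14.05 and 13.03 in XX E and 11.05 to 12.23 in XX B, a difference of 1.74 ± 0.53 with overlap of 1 array on each side. XY- E read 12.44, 14.62, 10.72, 11.85 and 9.81 against 11.21 to 12.79 in XY- B. In the testis-line groups estradiol minus blank was 0.03 ± 0.38 for Orm2. Orm1 stayed between 13.91 and 14.92 in all 60 liver arrays. Its raw signal was 12352 to 31084 on arrays whose brightest probes read 25084 to 37472, and whether the probe was near the upper limit of the scanner was not tested.

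By gonad type, estradiol minus blank was larger in the ovary-line than in the testis-line groups for every transcript except Orm1, for example 3.24 ± 0.44 and 1.35 ± 0.44 for S100a8, 2.16 ± 0.36 and 0.17 ± 0.36 for S100a9, 2.94 ± 0.66 and 0.50 ± 0.66 for Saa3, and 1.63 ± 0.24 and 0.18 ± 0.24 for Ngp. The difference between the lines was -1.45 ± 0.34 for Ngp, -2.0 ± 0.51 for S100a9, -1.89 ± 0.62 for S100a8 and -2.44 ± 0.94 for Saa3. These values are made of the estradiol and blank arrays on which the genes were selected, and they carry no test. In the same comparison 0 of 9 passed the threshold (5 of 9 had an unadjusted p under 0.05), beside 0.0795% of all probes, and nothing is read from that count. Without XY- E replicate 5, the array with high Hsd3b5, the S100a8, S100a9 and Ngp differences were -2.29, -2.24 and -1.60.

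**Figure D2:**
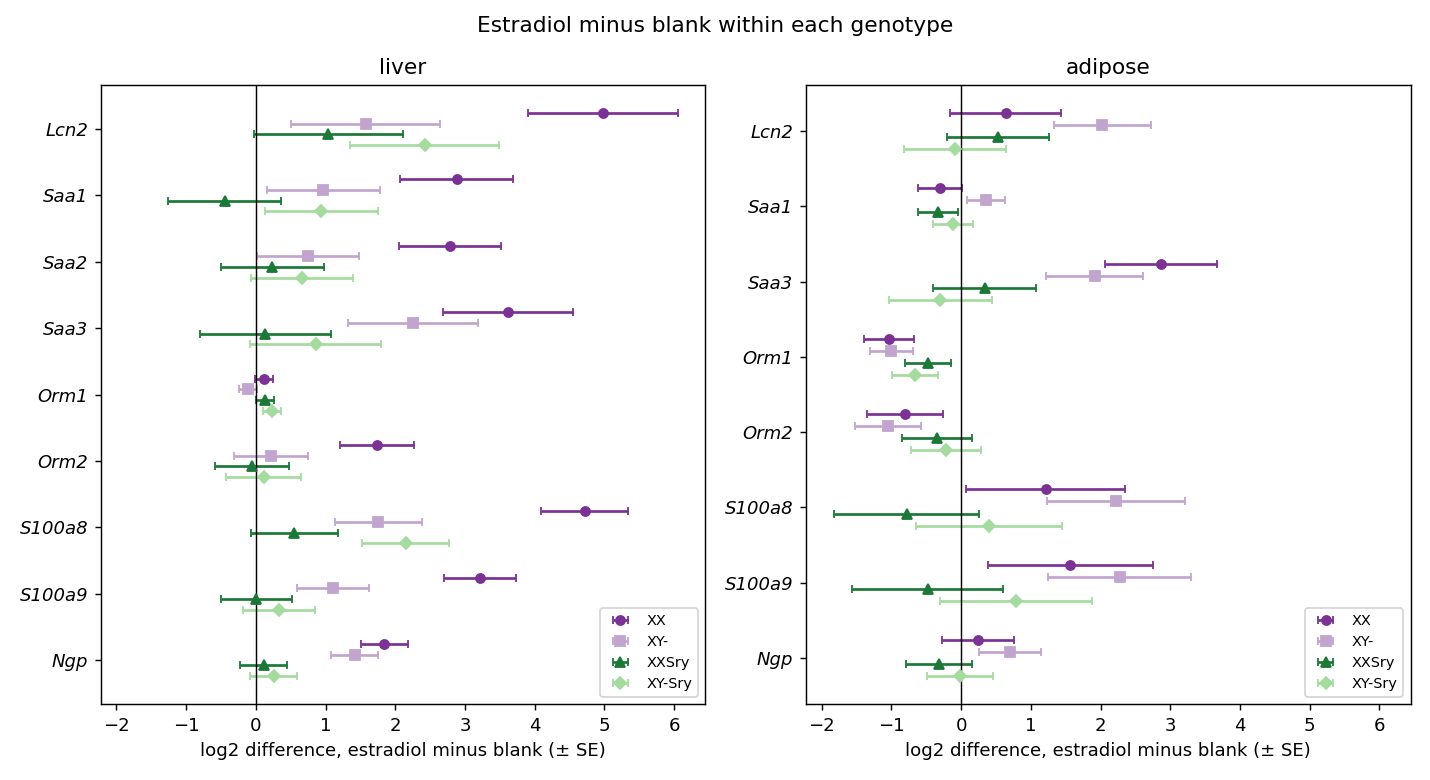
Estradiol minus blank (log2 difference ± SE from the fit, horizontal axis) in each of the 4 genotypes for the 9 transcripts in liver and the 8 tested in adipose tissue. In liver the XX difference is the largest for Lcn2 (4.98) and S100a8 (4.72). Where a probe is above background in the estradiol but not the blank arrays, as Ngp and S100a9 in XX liver, the difference is understated. Where it is above background in neither, as Ngp in the testis-line livers, the difference is one of background values.

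Slides carried part of each capsule group, and estradiol and blank arrays shared 2 of the 8 liver slides, with 4 arrays of each on both. Within these slides estradiol minus blank was 3.74 and 1.47 for Lcn2, 3.16 and 1.99 for S100a8, 1.86 and 0.41 for S100a9, and 1.07 and 0.73 for Ngp. The sign was the same on both slides for these 4 transcripts. For Orm2 the values were 1.09 and -0.13.

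Transcripts of other cells moved with these values. Of the neutrophil list (25 genes), 22 were on the array and 8 passed the filter. Camp and Mmp9 were above background in 5 of the 60 arrays, Pglyrp1 and Mpo in 6, Retnlg in 7, Ltf in 12, Prtn3 in 18 and Elane in 56. Apart from Elane, these probes passed on a minority of arrays, and the list mean was raised mainly in XX E and XY- E. Of the 8, 5 were higher with estradiol and 0 lower (6.82% of all probes called), and nothing is read from that count. Prtn3, a protease of primary granules, was higher by 2.0 ± 0.28, Ltf (lactotransferrin) by 1.49 ± 0.25 and Retnlg by 0.99 ± 0.19. The mean of the list was 6.26 to 7.58 in XX E, 4.94 to 7.99 in XY- E, 4.70 to 6.12 in XY- B and at most 5.62 in every other group. Mmp8, Padi4, Stfa1 and Stfa2 were above background in 0 of 60 arrays, Il8rb (Cxcr2) in 1 and Csf3r in 2. The macrophage list gave 8 of 11 probes higher, with Cd68 at 0.79 ± 0.15, Vsig4 at 0.75 ± 0.12 and Csf1r at 0.67 ± 0.12. The hepatocyte list had 0 of 10 probes called. Nothing is read from the macrophage and hepatocyte counts either. The part of these cells in the values above was not tested.

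Among other acute-phase genes (23 genes, 25 probes tested), 9 probes were higher with estradiol in liver and 0 lower. In this contrast 6.82% of all probes were called, and nothing is read from the counts and calls of this paragraph. The largest differences were Apcs, the serum amyloid P component, at 1.05 ± 0.23, Cd14, the co-receptor for lipopolysaccharide, at 1.04 ± 0.30, and Lbp, which hands lipopolysaccharide to it, at 0.79 ± 0.23. The median over the list was 0.24, beside -0.02 over all probes. Of the genes that signal to acute-phase promoters, 4 of 13 probes were higher, among them Socs3 at 0.78 ± 0.25, Stat3 at 0.60 ± 0.19 and Il1r1 at 0.40 ± 0.11, and 0 lower. Il1r1 was above background in 8 of the 60 liver arrays, so its difference rests mostly on background values. Of 8 probes of negative acute-phase proteins only Serpina6, the corticosteroid-binding globulin, was called, at -1.01 ± 0.19.

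Between gonad types with estradiol left out, limma called none of the 9 in liver. In the blank arrays, a contrast added after the values were seen, S100a8 was at 6.10 to 10.71 (median 7.06, 10 arrays) in the ovary-line and at 5.06 to 6.29 (median 5.87, 10 arrays) in the testis-line groups. The 2 sets overlap only between 6.10 and 6.29. Testis-line minus ovary-line was -1.47 ± 0.44 (adjusted p = 0.0717) for S100a8 and -0.42 ± 0.36 (adjusted p = 0.848) for S100a9, with 0 of 9 called (3 of 9 had an unadjusted p under 0.05), where 1.75% of all probes were called. S100a8 was called when replicate 2 or 5 of XY- E was left out, arrays that enter only through the pooled estimate of the spread and the adjustment, and also with the slide as a random block, with array weights and without both arrays that go against their labels. In the testosterone arrays, also added later, limma called 0 of 9 (0 with an unadjusted p under 0.05; 0.212% of all probes called). All 9 differences were positive there, with S100a8 at 0.20 ± 0.44 and S100a9 at 0.15 ± 0.36.

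With estradiol the differences of S100a8, S100a9 and Ngp had larger values, given as a description. Testis-line minus ovary-line was -3.36 ± 0.44 for S100a8, -2.42 ± 0.36 for S100a9 and -1.44 ± 0.24 for Ngp, which was above background in 0 of 10 testis-line arrays under each capsule. Averaged over the 3 capsules the values were -1.54 ± 0.25 for S100a8, -0.90 ± 0.21 for S100a9, -0.46 ± 0.14 for Ngp, -0.69 ± 0.22 for Orm2, -1.14 ± 0.44 for Lcn2 and -0.96 ± 0.38 for Saa3. In this average 3 of 9 passed the threshold beside 3.4% of all probes, and since the estradiol arrays enter it, nothing is read from that count. The Orm2 average was -0.78 without XY- E replicate 5 and -0.75 without both arrays that go against their labels. Without XY-Sry T replicate 5 the Ngp average was -0.45. The S100a9 average rests on the estradiol arrays, given the blank and testosterone values above. Within the 8 slides, each holding 1 or 2 of the 3 capsules, testis-line minus ovary-line ranged from -3.0 to 0.05 for S100a8 and from -2.16 to 0.21 for S100a9.

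Macrophage markers were lower in the testis-line groups over the 3 capsules in 10 of 11 probes. Emr1, a macrophage surface receptor, was at -0.72 ± 0.11, Vsig4 at -0.65 ± 0.09 and Csf1r at -0.62 ± 0.10. Estradiol arrays enter this average, so it is given as a description here and for the lists below. Its share of all probes called was 3.4%, and nothing is read from the counts over the 3 capsules. In the blank arrays Emr1 was at -1.14 ± 0.20 (adjusted p = 0.000115). The list mean was 5.90 to 8.13 over the ovary-line groups and 5.74 to 7.09 over the testis-line groups. Of the 8 neutrophil probes tested, 2 were lower, Ltf at -0.98 ± 0.20 and Retnlg at -0.55 ± 0.16. Ltf was above background in 12 and Retnlg in 7 of the 60 liver arrays, and the list mean was highest in XX E and XY- E. Nothing is read from that count. In the lymphoid list (9 genes, 3 tested) 2 of 3 probes were lower, Cd3d at -0.46 ± 0.08 and Cd79b at -0.43 ± 0.11. Cd3d was above background in 5 and Cd79b in 26 of the 60 liver arrays, so these differences rest largely on background values. The part of these cells in the S100a8 and S100a9 differences was not tested. Of 25 probes of other acute-phase genes Cd14 alone was called, at -0.84 ± 0.24, and of 13 signalling probes Il1b, a cytokine that induces serum amyloid A, alone, at -0.59 ± 0.14.

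Orm2 was lower with testosterone in liver. In the XX groups Orm2 was at 9.89, 9.96, 9.68, 10.77 and 10.01 with testosterone and at 11.57, 12.23, 11.92, 11.33 and 11.05 with a blank capsule. In the XY- groups it was at 10.26, 9.90, 10.01, 10.20 and 9.96 with testosterone and at 12.79, 11.21, 11.52, 11.41 and 11.42 with a blank. Neither pair of groups overlaps. In the testis-line groups XXSry T replicate 4 and XY-Sry T replicate 3 stood at 12.58 and 12.62 above every blank array there (10.54 to 11.98), and the other 8 testosterone arrays lay between 9.38 and 10.47, below every blank array. Over all genotypes the difference was -1.0 ± 0.27 (adjusted p = 0.00491), and it was called with each array left out in turn (-1.15 to -0.93). Blank and testosterone arrays shared 3 slides, within which it was -1.45, -0.88 and -0.38.

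Orm2 was the only called transcript of the 9 under testosterone, against 19.1% of all probes. Orm1 was at -0.16 ± 0.07 (adjusted p = 0.0703) and was called without XY-Sry B replicate 1, XY-Sry T replicate 3, XXSry T replicate 4 or XX B replicate 2. By line, testosterone minus blank for Orm2 was -1.58 ± 0.38 in the ovary-line and -0.43 ± 0.38 in the testis-line groups, and that difference was 1.15 ± 0.53 (adjusted p = 0.844). For the effect of testosterone between gonad types limma called 0 of 9 (4 of 9 with an unadjusted p under 0.05), where 0.124% of all probes were called. Other acute-phase probes went both ways, 4 of 25 higher and 4 lower. Mt1 (metallothionein) fell by 1.43 on the log2 scale, Lrg1 rose by 0.82 and Hp (haptoglobin) by 0.58. Serpina6 fell by 1.78.

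By sex chromosome complement the liver values average over estradiol arrays too and are descriptions. XX minus XY was -0.39 ± 0.25 for S100a8 and between 0.03 and 0.23 for the others. In this comparison 0 of 9 passed the threshold (0 with an unadjusted p under 0.05), beside 0.186% of all probes, and nothing is read from that count. The interaction of sex chromosomes with gonad type and those with testosterone and with estradiol each called 0 of 9 (0 with an unadjusted p under 0.05 in each). In all 3, 0% of all probes were called. Only the interaction with testosterone leaves the estradiol arrays out, so nothing is read from the counts of the others. Of the estradiol interaction with sex chromosomes, the Lcn2 estimate was 1.01 ± 1.07.

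Arrays of one group differed from each other more for these transcripts than for nearly all others in liver. The SD inside groups, pooled over the 12 groups, was 1.82 for Lcn2, the largest of all 11317 probes, 1.58 for Saa3, 1.37 for Saa1, 1.24 for Saa2, 1.05 for S100a8, 0.90 for Orm2 and 0.86 for S100a9, beside a median of 0.36. The percentiles ran from 99.61 for S100a9 to 99.99 for Saa3 below Lcn2, and were 95.36 for Ngp (SD 0.56) and 2.47 for Orm1 (SD 0.18). The high arrays were often the same ones. XXSry T replicate 4 had Lcn2 at 12.76, Saa1 at 8.86, Saa2 at 8.53, Saa3 at 9.27 and Orm2 at 12.58. XY-Sry T replicate 3 had them at 12.77, 8.94, 7.68, 8.09 and 12.62, and XY-Sry E replicate 5 at 13.59, 8.03, 7.91, 11.47 and 12.27. Ngp was not above background in any of the 3 (4.43, 4.56 and 4.96). XY- B replicate 1 differed from these: S100a8 stood at 10.71 and S100a9 at 7.20 beside Lcn2 at 11.88 and Orm2 at 12.79, with Saa2 at 5.93.

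**Figure D3:**
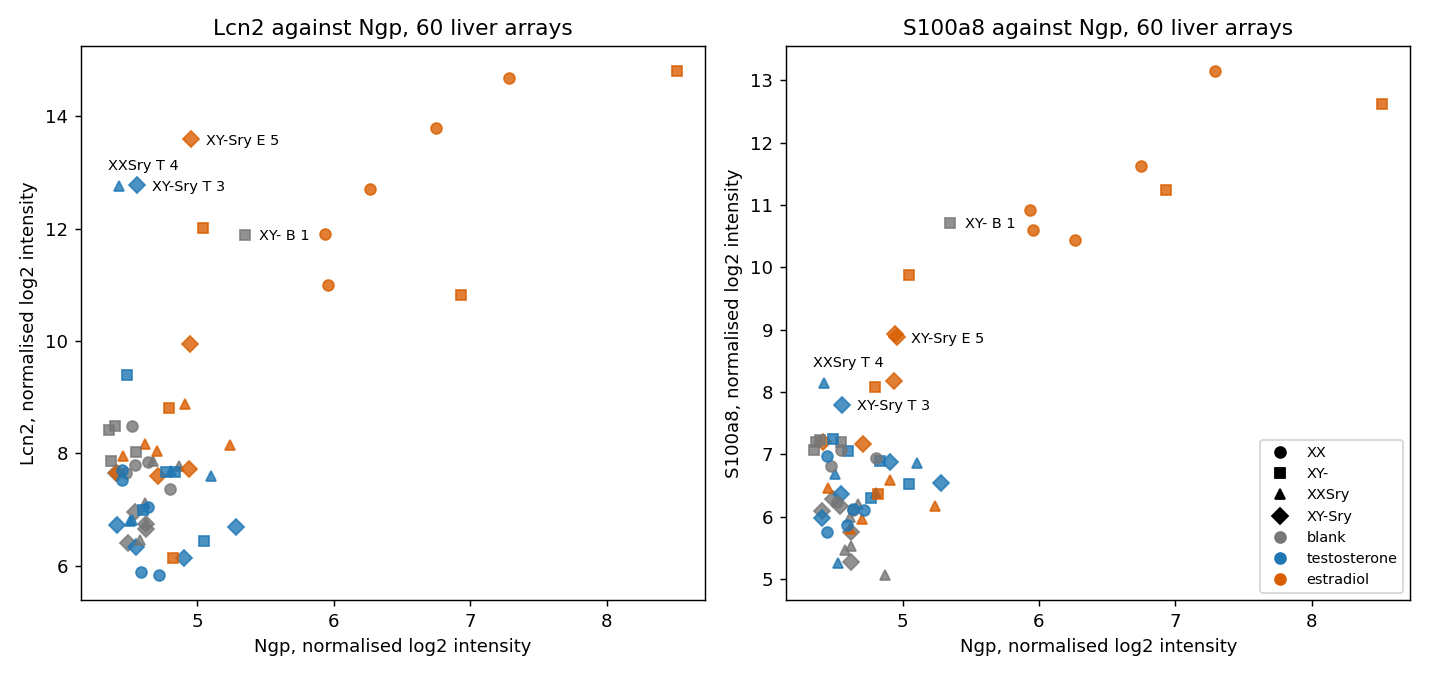
Lcn2 (left) and S100a8 (right) against Ngp in the 60 liver arrays, all in normalised log2 intensity; colour is the capsule and shape the genotype. Arrays above background for Ngp (5.94 to 8.52) are all XX E or XY- E, while XXSry T replicate 4, XY-Sry T replicate 3 and XY-Sry E replicate 5 have Lcn2 of 12.76, 12.77 and 13.59 at Ngp levels of 4.43, 4.56 and 4.96.

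After subtraction of each group's mean, the 60 liver arrays gave a Pearson r of 0.86 for Lcn2 and Orm2 (Spearman 0.69; 0.81 without the 2 arrays farthest out), 0.88 for S100a8 and S100a9 (0.77; 0.83), 0.88 for Saa1 and Saa2 (0.67; 0.81), 0.86 for Saa2 and Saa3 (0.67; 0.81) and 0.82 for S100a9 and Ngp (0.48; 0.72). Lcn2 and Ngp were at 0.44 (0.27; 0.57). Orm1 was at 0.25 to 0.53 with the others. These correlations are descriptions. The arrays share slides, and values below background add noise to Ngp, S100a9, Saa1 and Saa2.

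Beyond the 9, the genes most like each over the 60 liver arrays, by r after group means among 8501 genes, were Tlr2 (0.76), Prtn3 (0.75) and Apcs (0.74) for Lcn2. For S100a8 they were Ltf (0.87), Tnfrsf8 (0.79) and Tlr2 (0.76), and for Ngp Camp (0.88), Mpo (0.84) and Ltf (0.82). Saa1 was closest to Ly6d (0.79), Tnfrsf8 (0.76) and Mt2 (0.74), and Orm1 to Irgm (0.65), Snx10 (0.58) and Ly6e (0.52). The mean of the neutrophil list correlated at 0.89 with S100a9, 0.87 with S100a8, 0.85 with Ngp, 0.74 with Orm2, 0.70 with Saa3, 0.69 with Lcn2, 0.67 with Saa1, 0.66 with Saa2 and 0.36 with Orm1. Most probes of that list were above background in few of the 60 arrays (Camp in 5, Mpo in 6), and Ngp only in XX E and XY- E arrays. The r values of the list, and of Ngp with Camp and Mpo, rest on those few arrays and are descriptions.

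**Figure D4:**
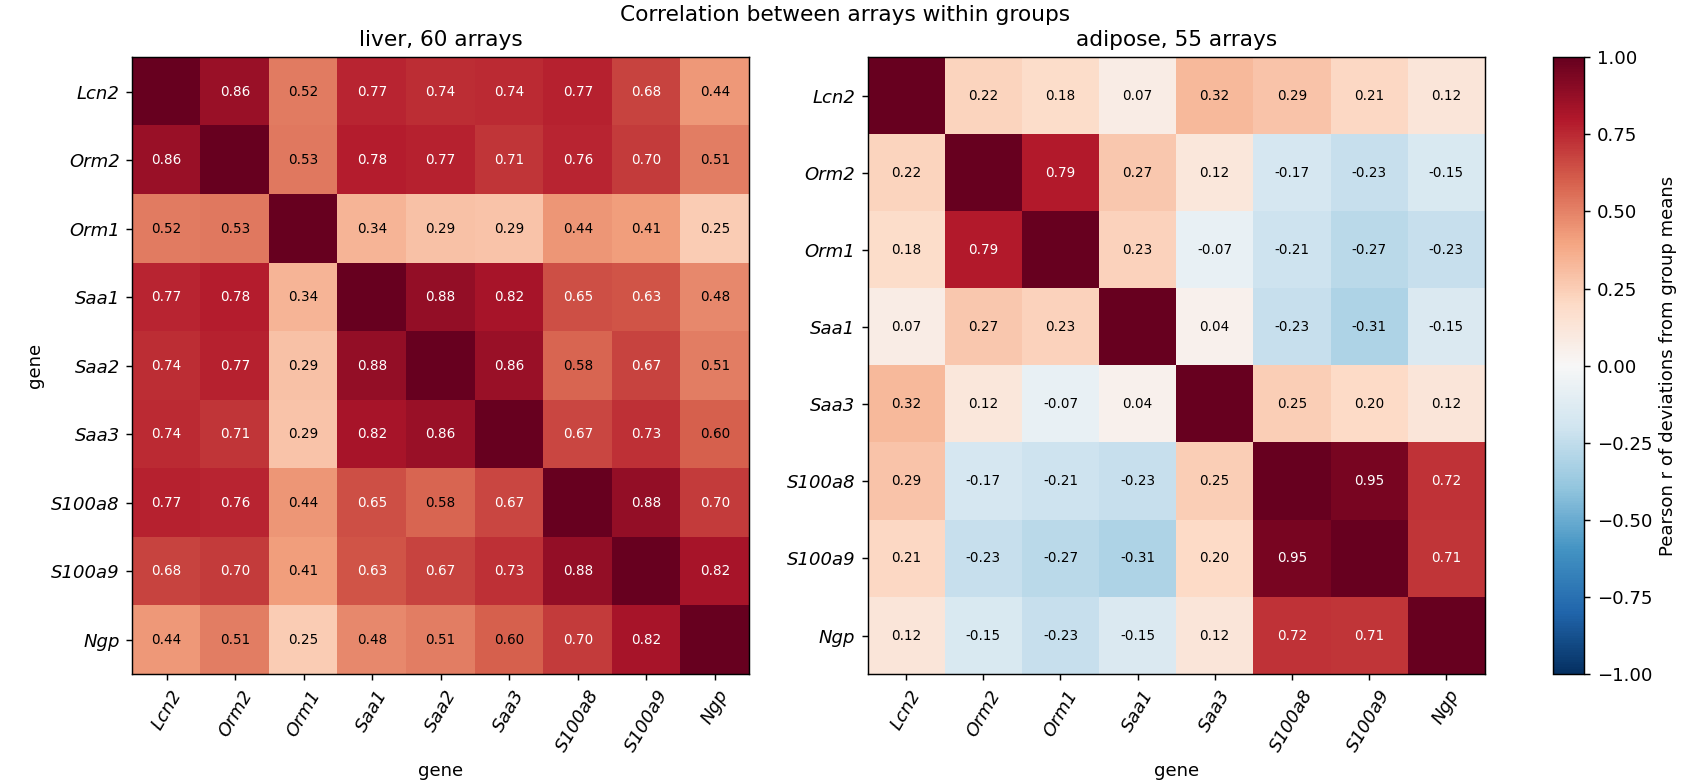
Pearson r between transcripts after each group's mean was subtracted, over 60 liver arrays (left, 9 transcripts) and 55 adipose arrays (right, 8 transcripts), from -1 (blue) to 1 (red). In liver the pairs without Orm1 lie between 0.44 and 0.88; in adipose tissue the high values are S100a8 with S100a9 (0.95), each of them with Ngp (0.72 and 0.71) and Orm1 with Orm2 (0.79).

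In adipose tissue the transcripts came apart. Lcn2 was higher in the ovary-line groups. With a blank capsule it was at 11.31, 10.05 and 11.05 in XX, at 10.03, 9.67, 10.24, 9.74 and 11.30 in XY-, at 7.93, 8.01, 7.31, 8.96 and 6.81 in XXSry and at 6.70, 9.08, 7.55 and 6.51 in XY-Sry. Ovary-line and testis-line blank arrays do not overlap. With testosterone the 2 lines ran from 9.99 to 12.30 and from 6.57 to 10.78, and with estradiol from 10.26 to 12.60 and from 6.06 to 10.29, so both overlap. Over all capsules testis-line minus ovary-line was -3.07 ± 0.30 (adjusted p = 1.87e-11). It was between -3.87 and -2.03 within each of the 8 slides and between -3.19 and -2.96 with each array left out. Lcn2 was the only one of 8 called, against 7.34% of all probes.

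The inguinal depot encloses mammary gland in mice, and its markers moved with Lcn2. Of the mammary epithelium list (7 genes) 3 were on the array, and all 4 of their probes were lower in the testis-line groups. Wfdc2 (1600023A02Rik on the array), a secreted epithelial protein, was at -4.40 ± 0.40 (adjusted p = 2.36e-12), Csn3 (kappa-casein) at -4.18 ± 0.37 (adjusted p = 1.62e-12) and Elf5, an epithelial transcription factor, at -2.20 ± 0.16 (adjusted p = 1.37e-15). The list mean spanned 8.62 to 11.25 in the ovary-line and 4.82 to 9.37 in the testis-line groups, and after group means it correlated with Lcn2 at 0.71 over 55 arrays. Ltf, also a milk protein, was at -3.92 ± 0.33 (adjusted p = 1.78e-13). The genes most like Lcn2 in adipose tissue were Chi3l1 (0.77), Irx2 (0.75) and Krt7 (0.74) of 10863. The part of mammary epithelium in the Lcn2 difference was not tested. The other 7 tested transcripts were between -0.34 and 0.40 and not called, with Orm1 at 0.31 ± 0.13 (adjusted p = 0.198).

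**Figure D5:**
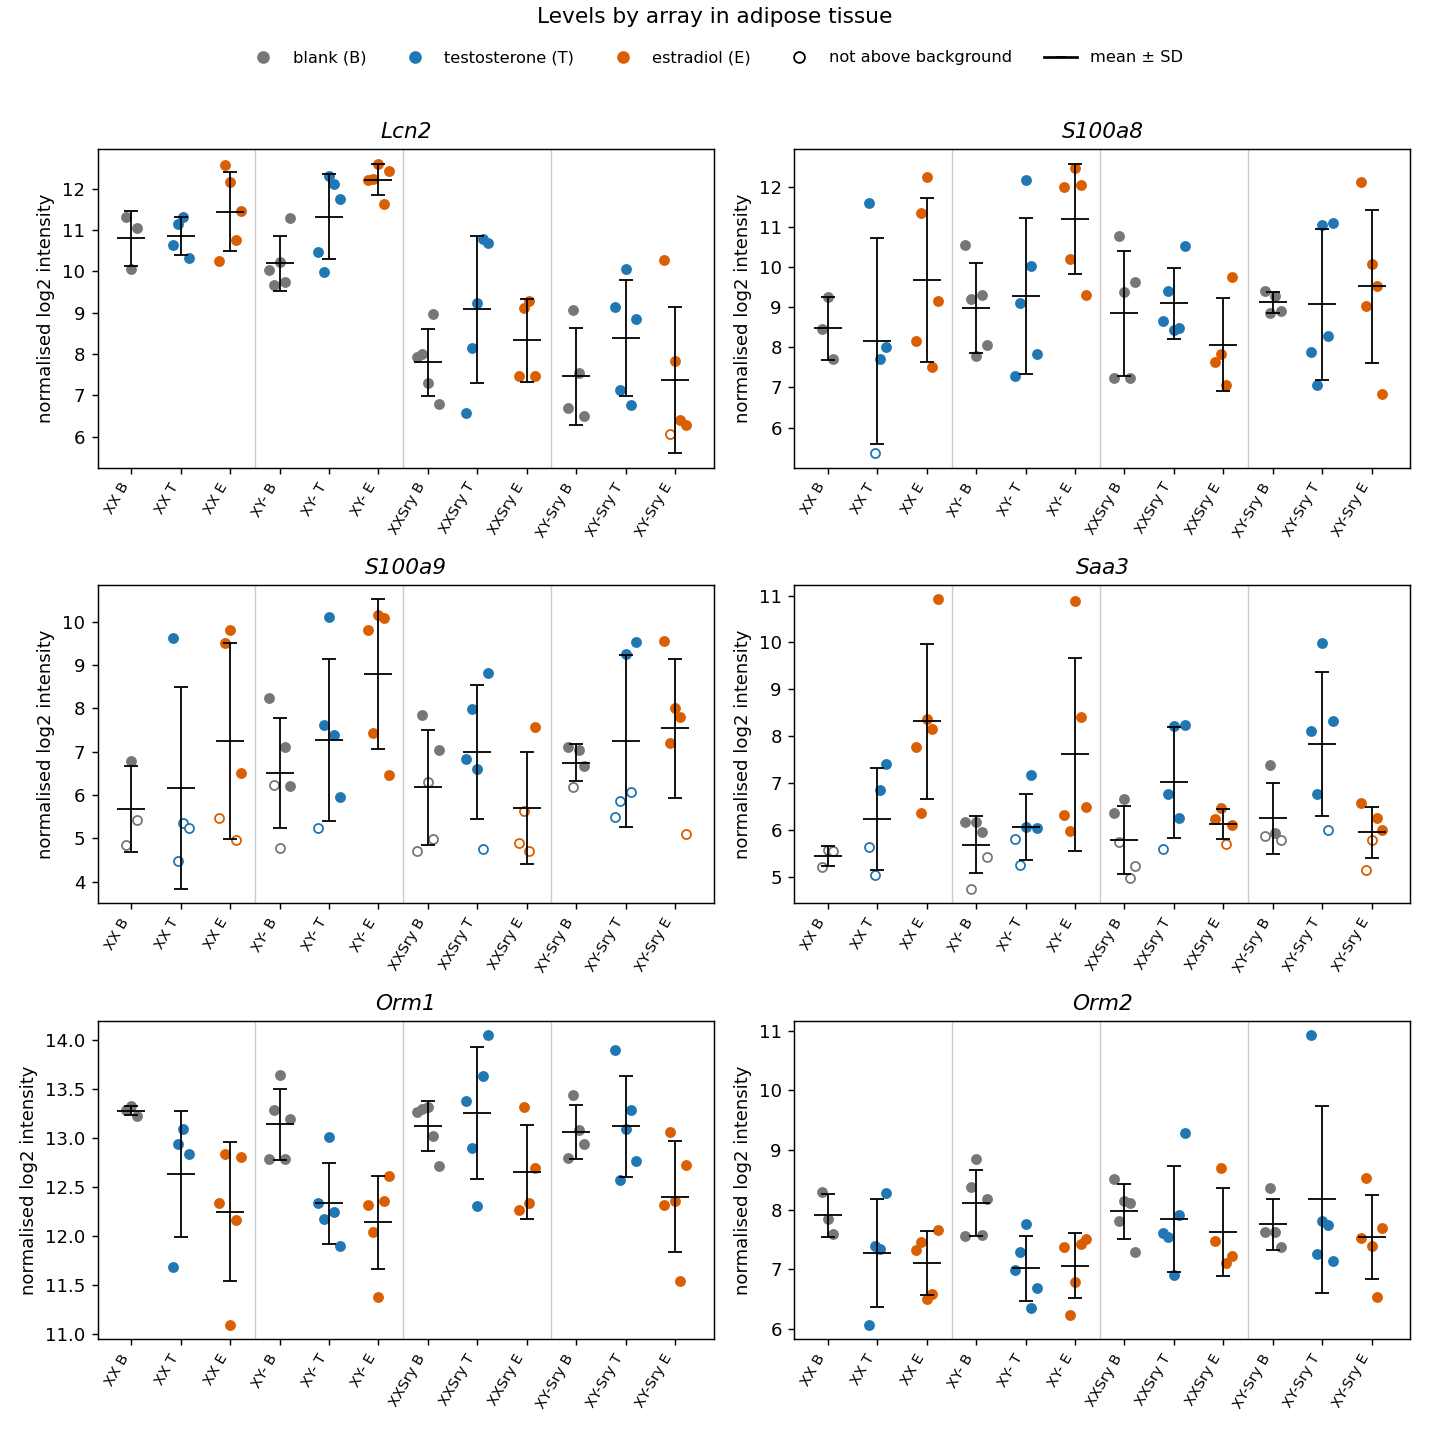
Normalised log2 intensity of Lcn2, S100a8, S100a9, Saa3, Orm1 and Orm2 in each adipose array (points, 3 to 5 per group, open where not above background) with the mean ± SD of the 12 groups. Lcn2 is higher in the 6 ovary-line groups on the left than in the 6 testis-line groups on the right, and the 5 XX E arrays of Saa3 (6.37 to 10.92) lie above the 3 XX B arrays (5.21 to 5.58).

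With estradiol Saa3 was higher and Orm1 lower in adipose tissue. These were 2 of 8 called against 20.5% of all probes, so the share is near the background. Saa3, a serum amyloid A that fat cells and macrophages also make, was at 7.78, 6.37, 8.38, 8.16 and 10.92 in XX E, and 0 of 3 XX B arrays (5.21, 5.58 and 5.57) was above background. XX E was at least 4.68-fold higher. In XY- E the arrays read 6.32, 5.98, 10.88, 8.42 and 6.49 against 4.75 to 6.18 in XY- B, with overlap. In the testis-line groups estradiol arrays spanned 5.15 to 6.58 and blank arrays 4.98 to 7.39. The difference over all genotypes was 1.21 ± 0.37 (adjusted p = 0.0152), and with the slide as a fixed block it was 0.80 and not called (adjusted p = 0.197). On the 2 slides that held both capsules it was 0.43 and 1.59. By line it was 2.39 ± 0.53 and 0.02 ± 0.52, and the test of that difference gave -2.37 ± 0.74 (adjusted p = 0.17).

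Orm1 was at 13.29, 13.32 and 13.22 in XX B and at 12.33, 12.83, 11.09, 12.16 and 12.81 in XX E, and at 12.78 to 13.64 in XY- B and 11.37 to 12.60 in XY- E. Neither ovary-line pair overlaps. XXSry E spanned 12.26 to 13.31 and XXSry B 12.71 to 13.31, and XY-Sry E 11.54 to 13.05 and XY-Sry B 12.79 to 13.43, so the testis-line pairs overlap. The difference was -0.79 ± 0.17 (adjusted p = 0.000325), between -0.85 and -0.72 with each array left out, and -0.37 and -0.96 on the 2 shared slides. Some adipocyte and erythroid markers were also called with estradiol, where 20.5% of all probes were. Of 7 adipocyte probes 2 were lower, a share near that background, Lep (leptin) at -0.47 ± 0.17 and Plin (perilipin) at -0.40 ± 0.13. Of 5 erythroid probes 4 were lower, among them Alas2 at -1.34 ± 0.28. The largest erythroid difference went the other way, with Eraf higher by 1.60 ± 0.19. After group means Orm1 correlated at 0.43 with both lists, and their part in the Orm1 difference was not tested. Orm2 was at -0.60 ± 0.25 (adjusted p = 0.0878) and was called without XY-Sry T replicate 1 or XXSry E replicate 2. XY-Sry T replicate 1 had the highest adipose Orm2 (10.92), in a group whose hepatocyte list mean reached 12.94 where it was 6.30 at the median. Over all adipose arrays Orm2 correlated with that list at 0.60 and with Orm1 at 0.79. The genes most like Orm1 were Gys2 (0.76), the glycogen synthase of liver and fat, Dhrs7 (0.74) and Aldh1a7 (0.73).

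Of 23 probes of other acute-phase genes in adipose tissue, 9 were higher with estradiol and 0 lower, with Hp at 2.26 ± 0.16 (adjusted p = 1.55e-15), Lrg1 at 1.66 ± 0.10 (adjusted p = 1.99e-17) and Lbp at 1.20 ± 0.25 (adjusted p = 0.00029). This count and the other estradiol counts below stand beside 20.5% of all probes called. Under testosterone 9 of the 23 acute-phase probes were higher and 0 lower, beside 4.75% of all probes called. Hp was at 3.01 ± 0.16, Serpina3m, a serine protease inhibitor, at 2.15 ± 0.33 and Lrg1 at 1.65 ± 0.10. Of 9 probes of the hepatocyte list 1 was higher with testosterone, Cyp2e1 at 0.31 ± 0.09, and the list's median difference was 0.53 beside -0.02 over all probes. Its mean reached 12.94 in XY-Sry T and 10.20 in XX T, where the mean of the other acute-phase genes reached 12.10 and 10.58. A blank group, XXSry B, also reached 10.33 for the hepatocyte list and 9.87 for the other acute-phase genes. The part of hepatocyte transcripts in the testosterone values was not tested. Both comparisons use the same blank arrays. Of 14 signalling probes 5 were higher with estradiol and 0 lower, among them Nfkbiz at 0.62 ± 0.17, Osmr at 0.50 ± 0.11 and Stat3 at 0.39 ± 0.11, and of 8 probes of negative acute-phase proteins Rbp4, the retinol carrier, alone was called, at -1.94 ± 0.27. Of the neutrophil list 7 of 18 probes were higher with estradiol and 0 lower, and of the macrophage list 9 of 10 were higher, with Vsig4 at 1.76 ± 0.28. The macrophage list mean was 7.36 to 8.85 in the estradiol groups and 6.28 to 7.92 in the blank groups, and after group means it correlated with Saa3 at -0.11. The part of these cells in the Saa3 difference was not tested.

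S100a8 and S100a9 varied widely in adipose tissue without a call. S100a8 spanned 7.51 to 12.25 in XX E and 7.71 to 9.26 in XX B, and 9.30 to 12.47 in XY- E and 7.78 to 10.56 in XY- B, and estradiol minus blank was 0.76 ± 0.53 (adjusted p = 0.341). S100a9 was at 1.04 ± 0.55 (adjusted p = 0.19) and Ngp at 0.15 ± 0.24 (adjusted p = 0.725). The SD inside groups was 1.67 for S100a9 and 1.61 for S100a8 (percentiles 98.28 and 98.09; median of all probes 0.42). After group means the neutrophil list correlated with S100a9 at 0.86 and with S100a8 at 0.84, the lymphoid list at 0.69 and 0.61, the adipocyte list at -0.56 and -0.49 and the muscle list at -0.40 and -0.43. The part of the tissue mix in this spread was not tested. Retnlg was the gene most like S100a8 (0.80). Saa1 was above background in 3 of the 55 arrays and Saa2 in 1. Lcn2 was at 0.78 ± 0.37 (adjusted p = 0.138) with estradiol.

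Testosterone gave 0 calls among the 8 in adipose tissue (limma; Lcn2 and Saa3 had an unadjusted p under 0.05), where 4.75% of all probes were called. Saa3 was at 0.99 ± 0.37 (adjusted p = 0.121) and Lcn2 at 0.85 ± 0.37 (adjusted p = 0.197). By sex chromosomes 0 of 8 were called (S100a9 had an unadjusted p under 0.05), where 0.137% of all probes were, and S100a9 was at -1.02 ± 0.44 (adjusted p = 0.428). The interactions of sex chromosomes with gonad type, with testosterone and with estradiol called 0 of 8 and 0% of all probes, with 0 unadjusted p under 0.05 among the 8 in each. The effect of testosterone between gonad types called 0 of 8 (Orm1 alone had an unadjusted p under 0.05), where 0.0137% of all probes were called. The effect of estradiol between gonad types called 0 of 8 (Saa3 alone), where 0.813% were.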

How the data were processed

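RNA of 60 liver and 55 inguinal adipose samples was measured on 1-colour Illumina BeadChips. Per the file headers, the authors deposited each probe's mean bead intensity (linear) with its detection p-value per array. The lowest deposited intensity was 89.1 in liver and 92.6 in adipose tissue and the array medians differed, so the values look neither background-subtracted nor normalised. The submitters' processing notes name lumi, and the scanner software is not given in the sources used here. The 115 columns of bead standard errors were not used.

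Arrays were grouped by genotype, treatment and tissue from the labels, and replicate numbers only name arrays. In limma 3.58.1 (R 4.3.3) each tissue was corrected by normexp from the detection p-values with 16 added, normalised by quantiles and log2-transformed. Tests covered probes with a detection p under 0.01 in 5 or more liver or 3 or more adipose arrays, which kept 11317 and 14636 probes. A mean per group was fitted (lmFit, eBayes; 48 and 43 residual degrees of freedom), with 9 contrasts per tissue and 2 added in liver after the values were seen. Groups were weighted equally and p-values adjusted by Benjamini-Hochberg within each contrast. The fit was checked on simulated data. The number of arrays limits the precision.

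A fold bound sets the bright group's mean against, per array, the higher of the dim probe's own value and the lowest signal above background. The named genes are the 9 transcripts, the 3 largest called differences of each marker list, and the 5 most similar genes of some of the transcripts, of which up to 3 are given. The 9 transcripts, the lists and the contrasts were chosen with earlier results of these data known. Alternatives changed the background correction, offset, normalisation, filter, slide block, array weights, marker scores as covariates and arrays left out. The scores of the hepatocyte, muscle and lymphoid lists served as covariates. The erythroid, lymphoid, muscle and adipocyte lists gave in liver, for estradiol, 1 called probe of 5 (Alas2, lower), 0 of 3, 0 of 1 and 0 of 3 (mammary epithelium 0 of 1), and in adipose tissue 5 of 5 (4 lower), 0 of 10, 0 of 6 and 2 of 7 (both lower; hepatocyte 0 of 9, mammary epithelium 0 of 4).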

Additional observations from a re-analysis of the deposited data

Results flagged for a closer look

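In 24 cases an array's gap to the rest of its group, as a share of the group's range, exceeded Dixon's 95% critical value, which chance passes in about 1 of 20 groups of 4 to 10 arrays. Of 108 sets of a transcript and a group in liver 20 were such cases, mostly on a few arrays. XXSry T replicate 4 was high for Lcn2 (12.76), S100a9 (6.16), Saa2 (8.53), Saa3 (9.27) and Orm2 (12.58). XY-Sry T replicate 3 was high for Lcn2 (12.77), Saa2 (7.68) and Orm2 (12.62). XY- B replicate 1 was high for Lcn2 (11.88), S100a8 (10.71), S100a9 (7.20) and Orm2 (12.79), and for Ngp at 5.35, a value not above background. XXSry E replicate 1 was high for Lcn2 (8.88) and Orm2 (11.81).

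Single cases in liver were XY-Sry E replicate 5 for Saa3 (11.47), XY- E replicate 2 for Saa2 (10.47), XY- T replicate 1 for Saa3 (7.48) and XY-Sry B replicate 5 for Orm2 (11.98), all high, and XY-Sry E replicate 4 for Orm1 (14.31), low. In adipose tissue there were 4 cases among 88 sets, no more than chance gives. XX T replicate 1 was high for S100a9 (9.62) and Ngp (7.57), XY-Sry B replicate 2 for Saa3 (7.39) and XY-Sry T replicate 1 for Orm2 (10.92). The XX B adipose group, with 3 arrays, was not tested. What sets the liver arrays apart was not tested.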

How the results depend on the processing

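No result changed sign under any alternative run, and counts not given here stayed within 1.5 times the reported ones. For liver testosterone 2 transcripts were called in place of 1 (Orm1 and Orm2) without background correction, with an offset of 50, with the slide as a fixed or a random block and with array weights. With a filter at 0.5 of the arrays, which tests fewer of the 9, the count was 1 in place of 3 for liver gonad type and 3 in place of 5 for liver estradiol. For the effect of estradiol between gonad types in liver it was 1 with the slide as a fixed block, 2 with a random block, 2 with array weights and 3 without both arrays that go against their labels, in place of 0. For gonad type in blank livers it was 1 (S100a8) with a random slide block, with array weights and without both arrays, in place of 0. In adipose tissue the count for estradiol was 1 with the slide as a fixed block (Orm1) and 4 with marker scores as covariates (S100a9, Saa3, Orm1 and Orm2), in place of 2. For sex chromosomes it was 2 with array weights (S100a8 and S100a9; 7.84% of all probes called, in place of 0.137%), and for testosterone 2 with the covariates (S100a9 and Orm2), both in place of 0. With 1 array left out, counts ranged from 2 to 5 for liver gonad type, 1 to 2 for liver testosterone, 5 to 7 for liver estradiol, 0 to 3 for estradiol between gonad types in liver and 0 to 1 for gonad type in blank livers, and 2 to 3 for adipose estradiol. The liver counts for estradiol, gonad type and estradiol between gonad types include the arrays on which the genes were selected and are descriptions. The same holds for the liver counts by sex chromosomes, apart from the interaction with testosterone. The cause of these changes was not tested, apart from the filter. No paired analysis was possible because the labels give no replicate numbers; slides were used as blocks instead, as given above. Ngp, S100a9, Saa1 and Saa2 in liver and Saa1, Saa3 and Ngp in adipose tissue were near background in most groups, which limits their differences.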
